A study of Mus musculus with 4 samples.

Results

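Myosin-binding proteins and alpha-actinins are the 2 gene families described here, with 5 and 4 genes. The 9 genes (Mybpc1, Mybpc2, Mybpc3, Mybph, Mybphl, Actn1, Actn2, Actn3 and Actn4) were chosen by name and each matched 1 row among the 36814 of the authors' deposited table, of which 24454 were tested. RNA was sequenced from the ventricles, with the atria cut away, of 4 mice at postnatal day 14. The 2 control mice were wild type, and the 2 mutant mice carried a conditional Hnrnpu allele deleted by Ckmm-Cre, a recombinase under the promoter of muscle creatine kinase, which is active in heart and skeletal muscle. All were on a mixed C57BL/6 and 129 S4 background, with 1 male and 1 female in each group by the labels. The study asked what the loss of hnRNP U, a nuclear RNA-binding protein, does to the postnatal heart. Levels are RPKM, read numbers scaled by transcript length and by library size, and the authors gave 1 value per group, so no spread between mice stands beside a level.

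Myosin-binding protein C lies on the thick filament of the sarcomere, where it binds myosin and titin and tunes the cycling of myosin heads against actin. Striated muscle has a cardiac form (Mybpc3), a fast skeletal form (Mybpc2) and a slow skeletal form (Mybpc1), and mutations of the cardiac gene are a common cause of hypertrophic cardiomyopathy. Mybph and Mybphl code for shorter relatives, the first known from skeletal muscle and the second from atrial muscle and the conduction system. Alpha-actinins are dimers that crosslink actin filaments. Actn2 anchors actin at the Z-disc of heart and skeletal muscle, Actn3 does so in fast skeletal fibres, and Actn1 and Actn4 act in adhesions and stress fibres of non-muscle and smooth muscle cells.

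Mybpc2 was the member that rose in mutant ventricles, about 5.86-fold, and it was the 1 call among the 9. Cardiac Mybpc3 and Actn2 remained the most abundant member of their families in both groups, and neither passed the test. All 4 alpha-actinins were listed higher in mutant, Actn1 nearest to the threshold at 3.16-fold, and 3 of 5 myosin-binding genes were listed lower. None of these was called, and the share of all rows listed higher is not given, so the directions only describe the genes. Slow skeletal Mybpc1, fast skeletal Actn3, Mybph and atrial Mybphl stayed below 1 RPKM in each group.

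The upstream sequences of 4 members are shown because they belong to the gene that rose (Mybpc2), the gene nearest to the threshold (Actn1) and the cardiac form of each family (Mybpc3 and Actn2). Each is the 250 bases before the RefSeq start of the gene, 5′ to 3′ on the gene's own strand, in build GRCm38.p6, which is a later build than the mm9 of the deposited table. They lie at chr7:44524670-44524919 (minus strand, Mybpc2), chr2:91117894-91118143 (plus strand, Mybpc3), chr12:80260364-80260613 (minus strand, Actn1) and chr13:12340733-12340982 (minus strand, Actn2). Capitals mark matches, on either strand, to 4 motifs known from muscle promoters: the E-box (CANNTG), the M-CAT element (CATTCC), the CArG box and the MEF2 site.
Mybpc2: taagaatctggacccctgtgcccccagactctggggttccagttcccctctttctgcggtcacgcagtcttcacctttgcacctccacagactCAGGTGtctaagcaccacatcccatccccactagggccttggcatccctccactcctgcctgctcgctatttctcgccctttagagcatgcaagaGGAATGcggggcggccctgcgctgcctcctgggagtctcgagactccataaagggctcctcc
Mybpc3: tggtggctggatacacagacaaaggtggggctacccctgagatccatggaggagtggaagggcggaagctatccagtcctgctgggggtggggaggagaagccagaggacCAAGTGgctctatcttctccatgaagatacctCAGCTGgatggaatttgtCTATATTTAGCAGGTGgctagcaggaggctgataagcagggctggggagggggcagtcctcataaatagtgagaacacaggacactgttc
Actn1: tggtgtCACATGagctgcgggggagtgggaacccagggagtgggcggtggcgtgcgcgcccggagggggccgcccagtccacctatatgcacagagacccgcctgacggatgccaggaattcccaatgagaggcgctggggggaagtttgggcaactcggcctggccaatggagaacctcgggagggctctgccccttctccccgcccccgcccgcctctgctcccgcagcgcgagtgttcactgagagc
Actn2: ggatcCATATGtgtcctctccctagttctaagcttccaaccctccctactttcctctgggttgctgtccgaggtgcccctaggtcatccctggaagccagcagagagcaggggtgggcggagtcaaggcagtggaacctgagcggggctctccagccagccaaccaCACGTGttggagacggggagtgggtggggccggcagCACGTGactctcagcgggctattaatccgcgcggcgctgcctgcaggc

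The Mybpc2 window held 1 E-box match and 1 M-CAT match, the latter starting 62 bases before the start and read on the opposite strand. The windows of Actn4 and Mybph, not shown, also held 1 M-CAT match each. Neither of these genes was called, and Mybph was listed lower in mutant. The Mybpc3 window held 3 E-box matches and 1 MEF2 match, which starts 90 bases before the start and runs directly into the last E-box match, so the long run of capitals is both. Actn2 had 3 E-box matches and Actn1 had 1, with no match to the other motifs in either window. Among all 32851 RefSeq windows of 250 bases, 66.2% held an E-box match, 12.6% an M-CAT match, 2.92% a MEF2 match and 1.47% a CArG match. A match describes these letters and does not show that a factor binds. Of the 9 members, 8 had an entry in the RefSeq table, and Actn3 had none.

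**Figure D1:**
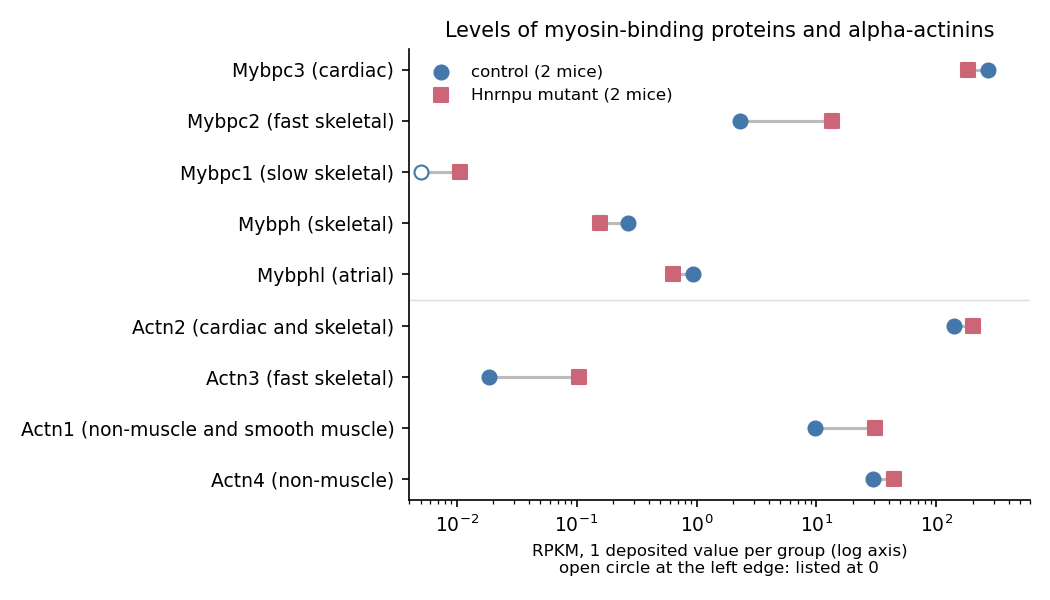
RPKM of the 9 genes in control (blue circles) and Hnrnpu mutant ventricles (red squares), 1 deposited value per group of 2 mice, on a log axis; the open circle marks a value listed at 0. Mybpc3 and Actn2 are the rightmost points in both groups, and Mybpc2 moves from 2.31 to 13.6 RPKM.

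Among the myosin-binding proteins, the cardiac form Mybpc3 (chromosome 2, 90958301 to 90976673, plus strand, mm9) had a level of 270 RPKM in control ventricles and 184 RPKM in mutant ventricles. The authors' deposited table gives a fold of 0.679, a log2 fold change of -0.56, with p = 0.542 and an adjusted p of 1. The 95% interval implied by that p, from -2.35 to 1.23 on the log2 scale, spans a change to 0.197-fold as well as to 2.35-fold. Such intervals take the log2 change as normal, with the error that would give the deposited p. A fall or a rise of the cardiac gene of that size was therefore not resolved.

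Mybpc2, the fast skeletal form (chromosome 7, 51757088 to 51780039, minus strand, mm9), was found at 2.31 RPKM in control hearts and at 13.6 RPKM in mutant hearts. In the authors' deposited table this rise is 2.55 on the log2 scale, with p = 8.26e-07 and an adjusted p of 1.13e-04, and the implied interval runs from 2.90-fold to 11.8-fold. Across the whole table, 3.51% of tested rows were called, 2.03% higher and 1.48% lower in mutant, against 1 of the 9 genes here. With the estimate of read worth given below, the Mybpc2 values stand for roughly 416 to 488 reads in control and 5478 to 7512 reads in mutant. No other row of the table overlaps the gene.

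Slow skeletal Mybpc1 (chromosome 10, 87981024 to 88067897, minus strand) was listed at 0 in control and at 0.0106 RPKM in mutant, which is about 5 to 6 reads. The authors' deposited table gives p = 0.264 and an adjusted p of 0.80, and lists the fold as infinite because the control value is 0. The gene was thus at the edge of detection in these ventricles.

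The shorter relatives had low values. Mybphl, the atrial form (chromosome 3, 108167829 to 108182974, plus strand), had 0.941 RPKM in control against 0.639 RPKM in mutant, a log2 fold change of -0.56 in the authors' deposited table (adjusted p = 0.991, implied interval from -2.16 to 1.04). Mybph (chromosome 1, 136090025 to 136097808, plus strand) had 0.269 RPKM in control against 0.158 RPKM in mutant, for which the authors' deposited table gives -0.77 on the log2 scale (adjusted p = 0.958). Neither passed the test. The last 2009 bases of Mybph overlap Adora1, an adenosine receptor gene on the other strand at 2.45 and 2.55 RPKM in control and mutant, and 780 bases of Mybphl overlap the noncoding Gm12522, at 0.148 and 0.0726 RPKM. The use of strand in counting is not given in the sources used here, so the values of Mybph and Mybphl may hold reads of these neighbours.

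Of the alpha-actinins, striated muscle Actn2 (chromosome 13, 12361693 to 12433027, minus strand) reached 139 RPKM in control ventricles and 203 RPKM in mutant ventricles. The authors' deposited table gives a fold of 1.46, p = 0.519 and an adjusted p of 1, and the implied interval runs from 0.465-fold to 4.56-fold. Actn2 was second to Mybpc3 in control and first among the 9 genes in mutant: the ratio of Mybpc3 to Actn2 was 1.94 in control and 0.906 in mutant. Since neither gene passed the test, this change of order is a description of 2 pairs of group values.

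Actn3, the form of fast skeletal fibres (chromosome 19, 4861223 to 4877909, minus strand), had 0.0187 RPKM in control hearts and 0.105 RPKM in mutant hearts. Its fold of 5.58 in the authors' deposited table was close in size to that of Mybpc2, but with p = 0.0607 and an adjusted p of 0.436 it was not called. The control value stands for about 3 reads and the mutant value for about 34 to 46, and the implied interval is wide, from 0.926-fold to 33.6-fold.

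Actn1, found in adhesions, stress fibres and smooth muscle (chromosome 12, 81268529 to 81361358, minus strand), had 9.74 RPKM in control hearts and 30.8 RPKM in mutant hearts. The authors' deposited table lists a fold of 3.16, a log2 fold change of 1.66, p = 0.00205 and an adjusted p of 0.0548, just above the threshold of 0.05. Its implied interval runs from 1.52-fold to 6.57-fold. When the same p-values were adjusted by the Benjamini-Hochberg method over the 11292 rows with a mean of at least 1 RPKM, the adjusted p of Actn1 was 0.0366, and over protein coding rows it was 0.0476. The call on Actn1 thus depends on which rows enter the adjustment.

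Actn4, the other non-muscle form (chromosome 7, 29678267 to 29747359, minus strand), had 29.4 RPKM in control hearts and 44.7 RPKM in mutant hearts. The authors' deposited table gives it a fold of 1.52 with p = 0.326 and an adjusted p of 0.868, and the implied interval runs from 0.660-fold to 3.50-fold. At its end 338 bases overlap Capn12, a calpain gene on the other strand with 4.79 RPKM in control and 4.25 RPKM in mutant. Since the use of strand in counting is not given, the values of Actn4 may also hold reads of Capn12.

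**Figure D2:**
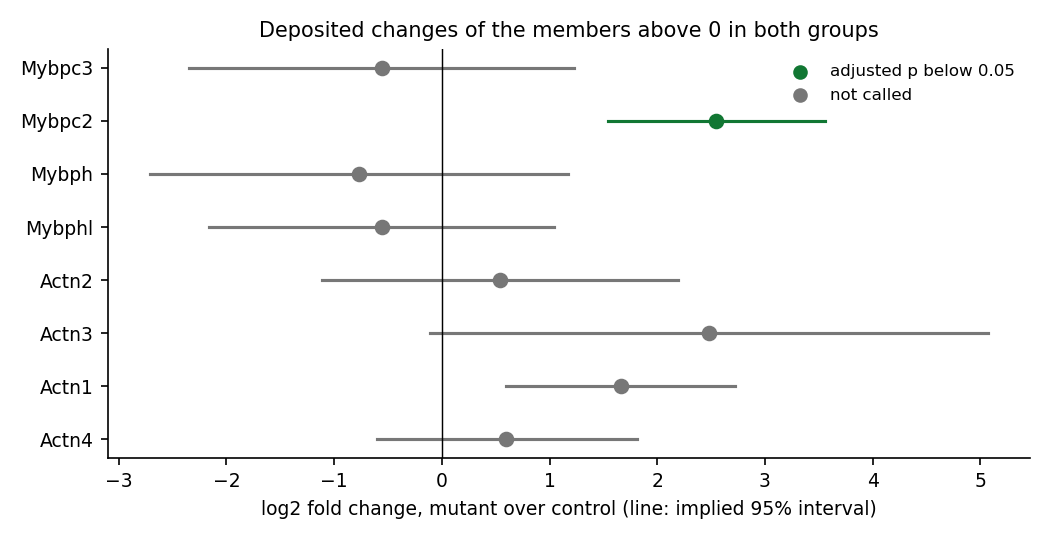
Deposited log2 fold change of mutant over control for the 8 genes above 0 in both groups, with the 95% interval implied by the deposited p as a line; green marks an adjusted p below 0.05. Mybpc2 is the green point at 2.55, the line of Actn1 also lies above 0, and the other 6 lines cross 0.

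The 4 alpha-actinins had a median log2 fold change of 1.13, and the 4 myosin-binding genes above 0 in both groups a median of -0.56. Over all 20922 tested rows above 0 in both groups the median was -0.03, and over the 10320 rows that reached 1 RPKM in each group it was 0.09. Of the 9 members, 5 had a mean of at least 1 RPKM, and 2 (Mybpc2 and Actn1) had an unadjusted p under 0.05. The share of all tested rows with an unadjusted p under 0.05 is not given, so that count only describes the members. These medians rest on 4 genes each, describe the genes without a test and depend on the genes with few reads. Over the 3 alpha-actinins with a mean of at least 1 RPKM, which leaves out Actn3, the median was 0.60, and with all 4 it was 0.70 or 0.57 when 0.1 or 1 RPKM was added to each value. For the myosin-binding genes it was -0.51 or -0.19 with these additions, and the 2 with a mean of at least 1 RPKM, Mybpc2 and Mybpc3, went opposite ways.

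**Figure D3:**
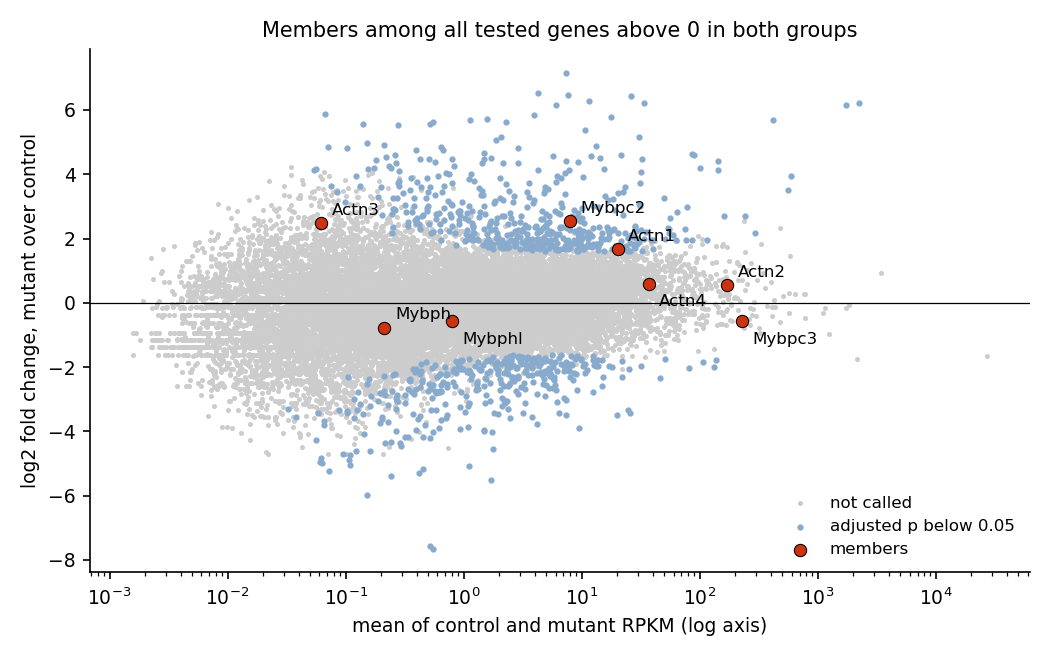
Log2 fold change of mutant over control against the mean RPKM of both groups (log axis) for the 20922 tested rows above 0 in both; blue marks rows with an adjusted p below 0.05 and red the 8 members plotted. Mybpc2 lies among the blue points, Actn1 at their lower edge, and the abundant Mybpc3 and Actn2 near the line of no change.

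Because RPKM is scaled by length, levels can be added within a family. The summed level of the 5 myosin-binding genes was 274 RPKM in control hearts and 198 RPKM in mutant hearts. Mybpc3 made up 98.7% of it in control and 92.7% in mutant, while the share of Mybpc2 was 0.845% in control and 6.85% in mutant. Expressed as a ratio, Mybpc3 stood at 117 times Mybpc2 in control and 13.5 times in mutant. Mybphl held 0.344% and 0.322%, so the share of the atrial form was nearly alike in the groups.

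The summed level of the alpha-actinins was 178 RPKM in control hearts and 279 RPKM in mutant hearts. Actn2 held 78.0% in control and 72.9% in mutant, Actn4 held 16.5% and 16.0%, and Actn1 held 5.47% and 11.1%. The ratio of Actn2 to Actn4 was 4.73 in control and 4.54 in mutant, whereas Actn4 stood at 3.02 times Actn1 in control and 1.45 times in mutant. Actn3 made up 0.0105% in control and 0.0377% in mutant. These shares come from 1 value per group and carry no test. In whole ventricle RNA, more cells of a type and more RNA per cell cannot be told apart.

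**Figure D4:**
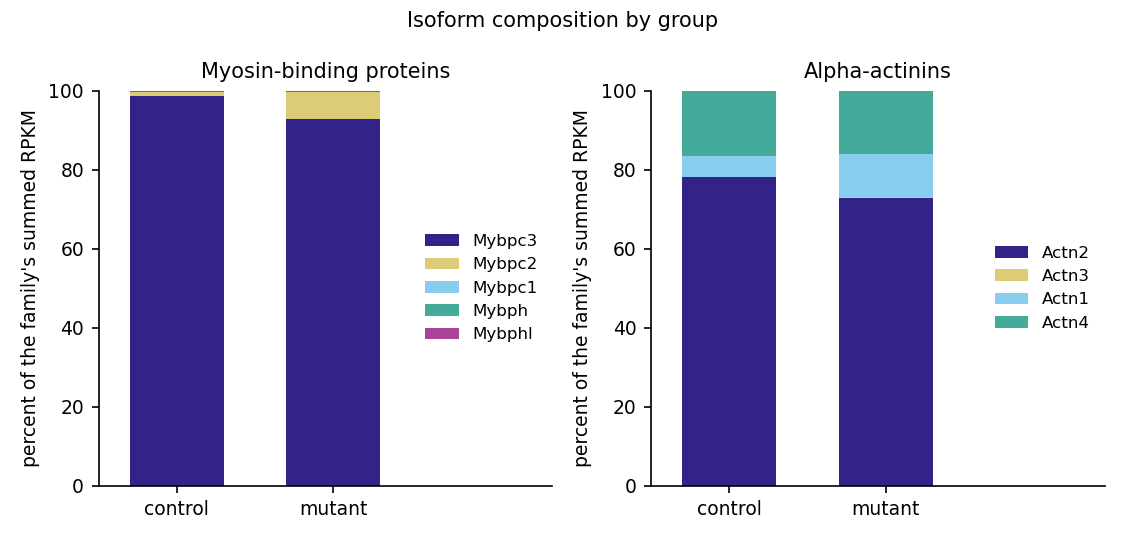
Percent of each family's summed RPKM held by each gene, in control and mutant ventricles (1 deposited value per group). The Mybpc2 segment widens from 0.845% to 6.85% and the Actn1 segment from 5.47% to 11.1%, with Mybpc3 and Actn2 as the main part of every bar.

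The order of levels was otherwise the same in both groups: below Mybpc3 and Actn2 came Actn4, Actn1, Mybpc2, Mybphl, Mybph, Actn3 and Mybpc1. Whether neighbours in this order differ beyond the spread between mice could not be told from 1 value per group. The coding sequences within the families are related but distinct. Aligned over the later GENCODE annotation, Actn1 and Actn4 were identical at 80.4% of aligned bases, Actn2 and Actn1 at 77.4%, Mybph and Mybphl at 72.8%, and Mybpc3 and Mybpc2 at 66.0%. Of all stretches of 36 bases in the longest transcripts, none of the 5 myosin-binding genes shared an exact stretch with another gene, and in the alpha-actinins the share ran from 0.561% in Actn3 to 1.75% in Actn2. Stretches were compared in the direction of each transcript only, so overlaps with genes on the other strand were not counted. The length of the reads is not given in the sources used here, so 36 bases is a stand-in.

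By the rule for likeness, the distance of the log2 levels over the 2 group values, the protein coding genes most like Mybpc2 were Stc2 (2.21 RPKM in control, 14.3 RPKM in mutant, distance 0.0965), Smad6 (2.50 and 12.5 RPKM, distance 0.167) and Ppp1r15a (2.47 and 15.8 RPKM, distance 0.237). With 2 values per gene this says only that their levels were alike.

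Genes of the structures that hold these proteins were listed with earlier results of the data known. Calls in these and the later lists stand beside 3.51% of all tested rows called, 2.03% higher and 1.48% lower in mutant. The share of all rows listed higher is not given, so counts of genes listed higher or lower only describe each list. The same holds in these and the later lists for counts at an unadjusted p under 0.05, whose share over all rows is not given. Of 19 genes of the thick filament and M-band, 1 fell, none rose and 18 did not pass the test, with a median log2 fold change of -0.59. The 1 that fell was Myh7b, a slow-type myosin heavy chain, with 36.6 RPKM in control and 3.27 RPKM in mutant (adjusted p = 4.04e-06 in the authors' deposited table). Myh6, the adult cardiac myosin heavy chain and the most abundant uncalled gene of the list, had 1660 and 840 RPKM in control and mutant, with an adjusted p of 1 in the authors' deposited table. Before adjustment 3 of the 19 had a p under 0.05: Myh7b, Trim54 (7.05 and 20.5 RPKM), a ubiquitin ligase family member, and Unc45b (16.8 and 7.56 RPKM), a myosin chaperone. These and the other genes named for an unadjusted p were picked out after their values were seen. None of 10 kinases and phosphatases known to act on cardiac myosin-binding protein C passed the test, and none of the deposited p-values was under 0.05 before adjustment. Their median was 0.24, and the most abundant, the phosphatase subunit Ppp1ca, had 52.5 and 111 RPKM (p = 0.0582, adjusted p = 0.427 in the authors' deposited table).

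Of 21 Z-disc partners of alpha-actinin, 2 rose, none fell and 19 did not pass, beside 2.03% of all tested rows called higher. Of the 21, 17 were listed higher, with a median of 0.84 over the 20 above 0 in both groups. Synpo2l, an actin-bundling protein of the Z-disc, rose from 17.4 to 138 RPKM (adjusted p = 0.00307 in the authors' deposited table). Xirp1, an actin-binding repeat protein of intercalated discs, rose from 11.1 to 40.0 RPKM (adjusted p = 0.0497 in the authors' deposited table). Csrp3, the muscle LIM protein, had 312 RPKM in control and 854 RPKM in mutant without a call (adjusted p = 0.466 in the authors' deposited table). When adjusted over rows with a mean of at least 1 RPKM, 4 of the 21 were called. The other 2 were the alpha-actinin-binding LIM protein Pdlim3 (10.3 and 30.4 RPKM) and the filamin Flnc (8.49 and 29.7 RPKM). The share of all rows called under this setting is not given, so the count only describes the list. None of 14 adhesion partners passed the test, with 12 listed higher, a median of 0.62 and 2 at an unadjusted p under 0.05, Zyx (14.1 and 40.7 RPKM) and Synpo (1.45 on the log2 scale). Itgb1, the integrin beta chain of muscle adhesions, was their most abundant gene, with 58.2 and 112 RPKM (adjusted p = 0.699 in the authors' deposited table).

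**Figure D5:**
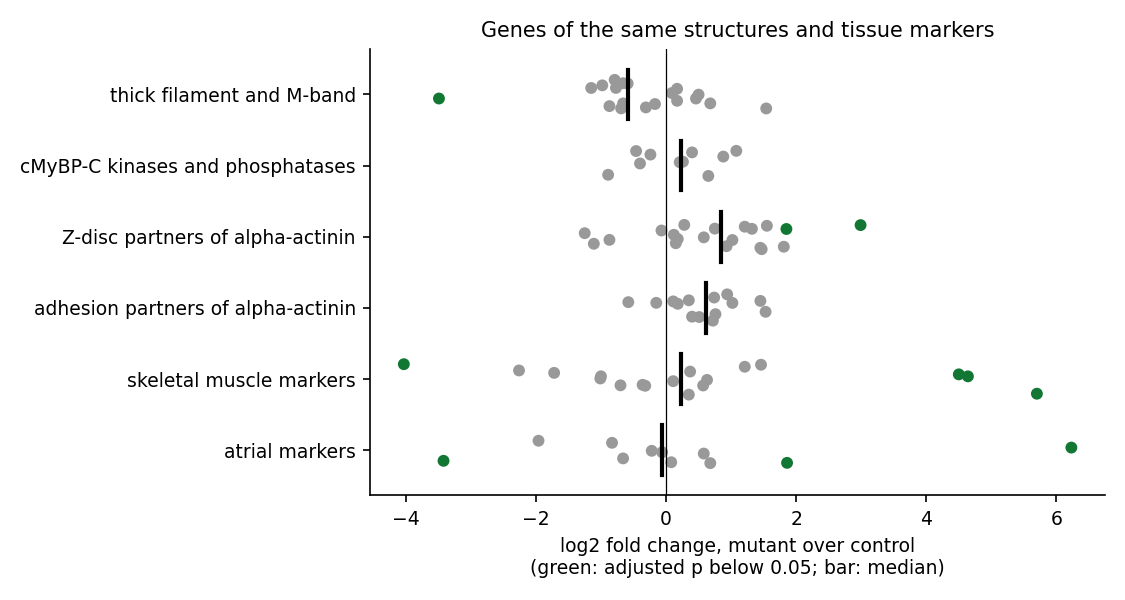
Log2 fold change of mutant over control for the tested genes of 6 lists that are above 0 in both groups; each point is a gene, green marks an adjusted p below 0.05 and the black bar is the median. The bar lies at 0.84 for Z-disc partners and at -0.59 for the thick filament and M-band, and the skeletal and atrial markers hold called genes on both sides of 0.

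The rise of the fast skeletal form Mybpc2 can be set beside other genes of skeletal muscle. Of 22 skeletal muscle markers, 19 were tested, 3 rose, 1 fell and 15 did not pass, with a median of 0.23, and their summed level was 39.4 RPKM in control hearts and 1010 RPKM in mutant hearts. The 3 that rose were Acta1, skeletal actin (15.9 to 827 RPKM), Casq1, skeletal calsequestrin (6.59 to 164 RPKM), and Myl1, a fast skeletal light chain (0.145 to 3.29 RPKM). Tnni2, fast skeletal troponin I, fell from 1.03 to 0.0633 RPKM (adjusted p = 0.00118 in the authors' deposited table). Before adjustment 6 of the 19 had p under 0.05: the called genes, and Tnnt1 (4.42 and 1.34 RPKM) and Cacna1s (0.0567 and 0.0118 RPKM), both listed lower. Of the 19, 11 were listed higher and 8 lower. Tnni1, slow skeletal troponin I, was the most abundant uncalled marker, with 9.98 and 12.7 RPKM in control and mutant. Most of the list was low while Acta1 and Casq1 made up nearly all of its summed level in mutant. Of the 22 markers, 16 were below 1 RPKM in both groups. The myogenic factors Myod1, Myog and Myf6 were listed at 0 in both groups, and the 5 skeletal myosin heavy chains Myh1, Myh2, Myh3, Myh4 and Myh8, picked out after their values were seen, summed to 0.211 and 0.163 RPKM in control and mutant. The part of skeletal muscle cells in the rise of Mybpc2 was not tested.

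Atrial Mybphl can likewise be set beside 12 atrial markers, of which 2 rose, 1 fell and 9 did not pass, with a median of -0.06. Nppa, atrial natriuretic peptide, rose from 58.2 to 4370 RPKM and made up nearly all of the list's summed level in mutant, which was 116 RPKM in control and 4421 RPKM in mutant. Dkk3, a secreted glycoprotein, rose from 3.74 to 13.6 RPKM, and Kcnj3, which codes for an atrial inward rectifier, fell from 3.28 to 0.306 RPKM. With Sln (6.46 and 1.66 RPKM), listed lower without a call, 4 of the 12 had p under 0.05 before adjustment. Myl7, the atrial regulatory light chain, had 27.9 and 17.7 RPKM in control and mutant without a call (adjusted p = 0.744 in the authors' deposited table). Bmp10, a growth factor of the atrial wall, had 0.0457 RPKM in control and was listed at 0 in mutant; it was picked out after its values were seen.

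Actn1 and Actn4 are expressed in many cells of the heart other than cardiomyocytes. Calls among markers of these cells stand beside 3.51% of all tested rows called, 2.03% higher and 1.48% lower in mutant. They also stand beside 596 called of the 11292 tested rows with a mean of at least 1 RPKM. Of 12 smooth muscle and mural markers, 1 rose, Tagln (9.76 to 42.6 RPKM), and the summed level was 335 RPKM in control and 965 RPKM in mutant, of which Acta2, smooth muscle actin, held 158 and 802 RPKM without a call (adjusted p = 0.171 in the authors' deposited table). The median of that list was -0.12, with 6 listed higher and 6 lower. Before adjustment 5 of the 12 had p under 0.05: Tagln, Acta2 and Cnn1 (0.619 and 1.74 RPKM) listed higher, and Smtn (24.3 and 9.22 RPKM) and Abcc9 (19.2 and 7.46 RPKM) listed lower. None of 12 fibroblast markers was called in the authors' deposited table, though 4 (Pdgfra, Tcf21, Postn and Mfap5) had p under 0.05 before adjustment, the median was 0.67, and Dcn, decorin, had 278 and 250 RPKM. The fibroblast sum was 787 RPKM in control and 1078 RPKM in mutant. All 12 macrophage markers were listed higher, with a median of 0.96 and a sum of 80.4 RPKM in control and 228 RPKM in mutant. Lyz2, lysozyme, was the 1 of them that rose (18.4 to 90.5 RPKM), and C1qb had 16.1 and 42.4 RPKM. Of 12 endothelial markers 1 rose, Vwf (1.54 to 7.79 RPKM), while 8 were listed lower, with a median of -0.42 and a sum of 224 and 217 RPKM. Robo4, listed lower at 17.5 and 8.17 RPKM, had p = 0.0307 before adjustment in the authors' deposited table, and Cdh5, the cadherin of endothelial junctions, had 42.8 and 31.8 RPKM in control and mutant without a call. Eng had 39.9 and 61.0 RPKM. The part of these cells in the values of Actn1 and Actn4 was not tested.

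Cardiomyocyte markers were high in both groups: the 12 genes summed to 10972 RPKM in control and 11625 RPKM in mutant. Their median was -0.24, with 8 listed lower and 4 higher. No gene of this list was called in the authors' deposited table, although 1, Ryr2, had p = 0.0461 before adjustment, at 52.2 and 16.3 RPKM. Actc1, cardiac actin, had 2380 and 4530 RPKM (adjusted p = 1 in the authors' deposited table). It was listed higher by more than the whole sum was, so the rest of the list together was lower in mutant. Myh6 had 1660 and 840 RPKM with p = 0.76 in the authors' deposited table. A missing call therefore does not show a stable level. Hnrnpu, the targeted gene, had 32.7 and 15.2 RPKM in control and mutant, and its change was not called (adjusted p = 0.438 in the authors' deposited table). Depth is not stated, but genes for small RNAs made of 1 exon showed what 1 read was worth. Their RPKM multiplied by length in kilobases had its lowest step at 0.0171 and the next at 0.0201 in control, against 0.00654 and 0.00896 in mutant. The mutant libraries were thus the deeper ones, if the authors scaled by mapped reads. The read numbers above divide RPKM times the length of the longest later transcript by these steps, so they are approximate.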

How the data were processed

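Bowtie 0.12.9, DESeq and the mouse build mm9 are named in the submitters' processing notes, with no step given for each. The counter, the annotation and the use of strand were not found in these sources. Per the file headers, the authors deposited RPKM with 1 value per group. They also gave, for each gene, a fold (ratio) of mutant to control, the log2 of this fold, and p-values before and after adjustment, all as deposited by the authors. A gene was called when the adjusted p-value in the deposited table, fitted by the authors across all genes, was below 0.05. Where a fold was 0 or infinite, the log2 column gives the same word, so direction was taken from the fold. Among 10320 rows that reached 1 RPKM in each group, the RPKM ratio and the fold in the table were at most 0.971% apart, and a recomputed Benjamini-Hochberg adjustment differed from the deposited one by at most 0.593%.

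The members, gene lists and tests were chosen with earlier results of these data known. All 9 members, the called genes of each list (up to 5) and its most abundant uncalled gene are named. No value per sample was analysed here, so no SD, replicate test or model with replicates is given, and whether the mice of a group were littermates is not stated. The code for the implied intervals and the adjustment was checked on simulated normal values. This checks the formulas as coded, and does not show that the intervals hold for read counts from 2 mice per group. Alternatives were other sets of rows for the adjustment, a threshold of 0.1, pseudocounts of 0.1 and 1 and centring on the median. Transcripts were from GENCODE, upstream sequences from RefSeq (GRCm38.p6), with Python 3.11.15, pandas 2.3.3, scipy 1.17.1 and Biopython 1.88. RefSeq and GENCODE coordinates were not mixed with those of the table.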

Additional observations from a re-analysis of the deposited data

How the results depend on the processing

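No paired analysis was possible because the table holds 1 value per group, and for the same reason leaving out each mouse was not run. The count of called members was 2 (Mybpc2 and Actn1) in place of 1 when p-values were adjusted over rows with a mean of at least 1 RPKM, 2 when adjusted over protein coding rows and 2 at a threshold of 0.1. Called Z-disc partners numbered 4 under the filter and 5 at the threshold of 0.1, and called thick filament and M-band genes 2 under each (Myh7b and Trim54); over protein coding rows both counts were as before. The adhesion partners and the kinases and phosphatases had 0 calls under all 3 settings. The share of all rows called under each of these settings is not given, so the counts only describe the genes. The adjusted p of Mybpc2 ranged from 6.62e-05 to 1.13e-04 over the settings. All 24 alternative log2 fold changes kept their direction, which could not have been otherwise. An equal addition to both groups cannot turn a direction, and the centring shifted each change by 0.09, less than any of them. A pseudocount of 1 took the log2 fold change of Mybpc2 to 2.14 and of Actn3 from 2.48 to 0.12. It took that of Mybph from -0.77 to -0.13 and of Mybphl from -0.56 to -0.24, by construction for genes at such low levels. The median of the alpha-actinins went from 1.13 to 0.57 with that pseudocount, and that of the myosin-binding genes turned from -0.56 to 1.0 when kept to the 2 with a mean of at least 1 RPKM, Mybpc2 and Mybpc3; these family medians were added after seeing the data. Mybpc1 was left out because its control value is 0, and no symbol of a member repeats. Precision is limited by the single value per group, and for Actn3 and Mybpc1 by few reads.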

Other observations

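The nearest protein coding genes tested on either side of Mybpc2 were Fam71e1, 232 bases away, at 0.235 and 0.323 RPKM in control and mutant, and Spib, 1326 bases away, with 0.327 RPKM in control and 0.0909 RPKM in mutant. Neither was called in the authors' deposited table (adjusted p = 1 and 0.334), though Spib, listed lower, had p = 0.0357 there before adjustment. Both were below 1 RPKM in each group, so the missing calls say little about the region. The nearest such genes of Actn1 were Zfp36l1, at 13.3 and 14.7 RPKM, and Dcaf5, at 3.52 and 5.46 RPKM. These were also without a call in the authors' deposited table (adjusted p = 1 and 0.738).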
